A study of Rattus norvegicus with 18 samples.

Results

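The interleukin-6 (IL-6) cytokine family was examined in the cerebral cortex of rats after subarachnoid hemorrhage (SAH), as 10 genes out of the 30735 in the deposited count table. The 10 genes are 4 ligands (Il6, Il11, Lif and Clcf1), 4 receptor chains (Il6r, Il6st, Lifr and Osmr), the transcription factor Stat3 and its feedback inhibitor Socs3. They were chosen by their gene symbols, with earlier results of these same comparisons known, so their levels, fold differences and counts are given as a description and test nothing. RNA was sequenced from 18 Sprague Dawley rats, adult and 8 to 10 weeks old, as 6 sham, 6 SAH 1d and 6 SAH 7d animals, each with its own library. The SAH groups had bleeding induced by puncturing an artery at the base of the brain from within with a nylon filament, and were sampled at 1 and 7 days. The sham group had the same surgery without the puncture, and the same 6 sham rats are the reference for both days. The sampling day of the sham group and the sex of the rats were not stated. The study's methods describe the cortex of the operated side and the labels describe both sides, so each library holds RNA of whole cortical tissue with all its cell types. Because the tissue is bulk, a lower level from fewer cells of a type cannot be told apart from less RNA per cell.

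Cytokines of this family act through receptor complexes that share the signalling chain gp130, the product of Il6st. IL-6 and IL-11 each bind a receptor chain of their own and then gather gp130, whereas leukemia inhibitory factor (the product of Lif) and oncostatin M pair gp130 with the chains encoded by Lifr or Osmr. The complexes activate Janus kinases (JAKs), which phosphorylate STAT3. Phosphorylated STAT3 enters the nucleus and drives genes that include Socs3, whose product blocks the receptor complex and ends the signal. In the brain the family is known for the acute-phase type of response to injury and for the reactive state of astrocytes. RNA levels do not show how much STAT3 is phosphorylated, which was not measured here.

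The promoters of Il6 and Il11 are shown because these ligands had the widest relative spread of levels in the SAH 1d group. Each run is the 250 bases before the RefSeq gene start, from the rat assembly GRCr8, written 5′ to 3′ on the gene's strand. The Il6 window lies at chr4:5894576-5894825 on the minus strand and the Il11 window at chr1:78098372-78098621 on the plus strand. Capitals mark short motifs found by letters alone.
Il6: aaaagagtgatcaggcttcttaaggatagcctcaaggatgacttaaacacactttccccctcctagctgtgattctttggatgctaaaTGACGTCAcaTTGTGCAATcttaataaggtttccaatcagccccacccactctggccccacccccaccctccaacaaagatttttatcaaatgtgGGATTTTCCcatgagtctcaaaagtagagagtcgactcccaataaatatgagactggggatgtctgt
Il11: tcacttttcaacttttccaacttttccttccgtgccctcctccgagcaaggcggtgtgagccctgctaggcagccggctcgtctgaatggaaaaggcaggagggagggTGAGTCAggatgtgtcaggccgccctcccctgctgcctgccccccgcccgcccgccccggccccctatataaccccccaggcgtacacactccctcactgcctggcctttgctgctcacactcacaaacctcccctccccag
In the Il6 window the capitals are, in order, a cyclic AMP response element (TGACGTCA, bases 162 to 155 before the start), a C/EBP-type motif (TTNNGCAAT, here TTGTGCAAT, bases 152 to 144) and a kB-like motif (GGNNTTTCC, here GGATTTTCC, bases 67 to 59). In the Il11 window the capitals are an AP-1 motif (TGANTCA, here TGAGTCA, bases 142 to 136). Both strands were searched, and the motifs did not overlap one another. Among 33469 rat promoter windows of the same length, 1.59% held the cyclic AMP response element, 2.04% the C/EBP-type motif, 5.19% the kB-like motif and 6.34% the AP-1 motif. The reference table held promoters for 8 of the 10 genes, all but Lif and Clcf1, and of these the Osmr window also held the AP-1 motif (TGATTCA, bases 33 to 27). The STAT motif TTCNNNGAA, present in 7.67% of all windows, was found in 0 of the 8. A match here is a string of letters and not a measured binding site, and a window without one says nothing of more distant sequence. The RefSeq starts were not checked against these libraries. A window, that of Socs3 included, may therefore not be the promoter used in the cortex, and the absence of a motif is not read as a trait of the gene.

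Total counts were 27270026 to 38271014 per library. Levels are given as CPM, counts per 1e+06 counts of the library, scaled by the trimmed mean of M values (TMM). All 10 genes were among the 18444 tested, but Il6, Il11 and Lif passed the filter on low counts only through the SAH 1d group. With at least 10 counts in at least 4 of 6 libraries taken as the mark, 10 of the 10 genes reached it at SAH 1d, and 7 did so both in sham cortex and at SAH 7d. A pair of libraries stood apart from their groups. SAH 1d-3 was the highest of its group for 35.4% and the lowest for 35.6% of 15789 expressed genes, and SAH 7d-5 was the highest for 40.2% and the lowest for 38.3%. These shares were not worked out for the other libraries. Neuron markers were present in every group, with a summed level of 5840 to 9473 CPM in the sham, 4794 to 5843 CPM in the SAH 1d and 2247 to 8651 CPM in the SAH 7d group, where SAH 7d-5 was the lowest. In SAH 1d against sham, 6 of 6 neuron markers were lower at an adjusted p under 0.05 (edgeR), beside 10.5% of all tested genes. The libraries keep the numbers of the deposited columns. In many cases where leaving out such a library moved a value clearly, the value without it is given beside it.

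Compared per length of transcript in the sham group, in FPKM, a unit that divides reads by transcript length and library size, the genes fell into 4 tiers. Stat3 and Il6st formed the highest tier, with sham medians of 13.2 and 11.4 FPKM and ranges that overlapped. Il6r and Lifr followed at medians of 2.77 and 2.70 FPKM, again overlapping. Clcf1, Osmr and Socs3 lay together at medians of 0.746, 0.589 and 0.501 FPKM. Il11, Il6 and Lif were close to the limit of detection, at medians of 0.0750, 0.0549 and 0.0258 FPKM. The ranges of neighbouring tiers did not overlap, so in sham cortex the shared chain and STAT3 were measured above the other receptors, and each receptor above Il6, Il11 and Lif. In the SAH 1d group Socs3 came next after Il6st by its median of 10.9 FPKM, where Stat3 was at 29.9 FPKM and Il6st at 19.5 FPKM. Its range there, 5.98 to 69.3 FPKM, overlapped those of both, but reached that of Stat3 only in SAH 1d-3, since the other 5 libraries held Socs3 at 5.98 to 17.3 FPKM and Stat3 at 26.8 to 42.3 FPKM. In the SAH 7d group Socs3 was back at a median of 0.940 FPKM, below Il6r and Lifr.

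**Figure D1:**
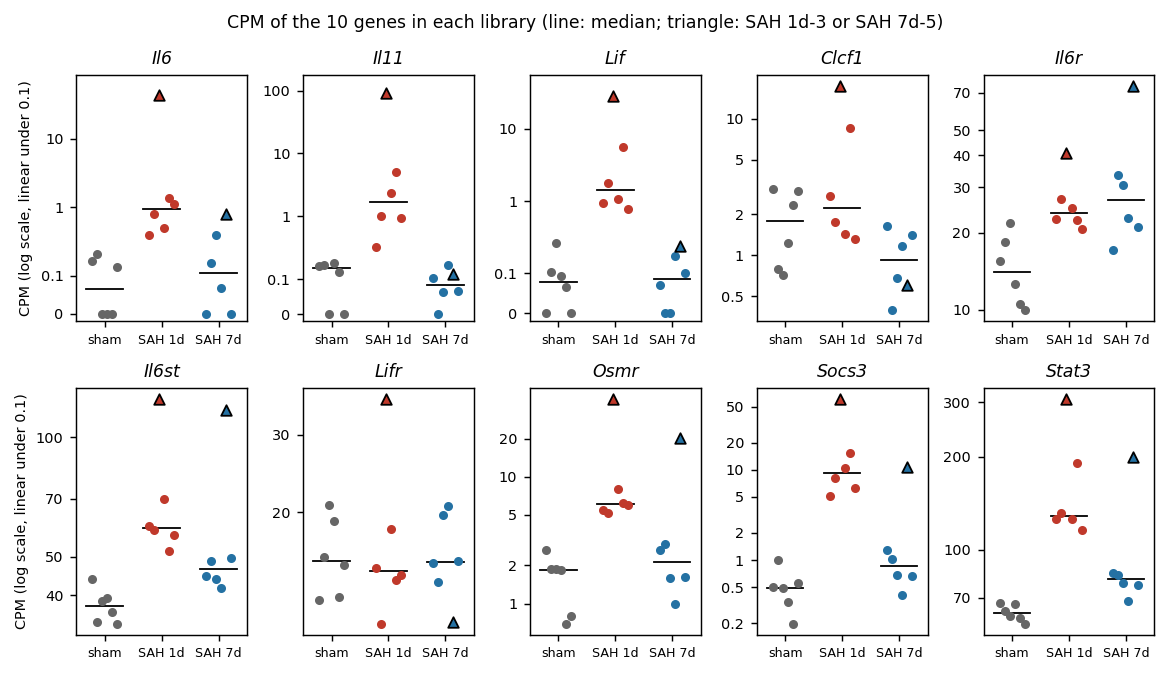
CPM of each of the 10 genes in every library (y axis; log scale, linear under 0.1 CPM in the panels of Il6, Il11 and Lif), by group on the x axis, with a line at the median and triangles for SAH 7d-5 and SAH 1d-3. SAH 1d-3 is the highest SAH 1d library in all 10 panels, and the SAH 1d points of 7 genes lie wholly above the sham points.

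SAH 1d was set against sham to ask how the cortex differed at 1 day after the bleed. Of the ligands, Il6, Il11 and Lif were nearly undetected in sham cortex and were detected in every SAH 1d library. Il6 encodes IL-6 itself, and its reads amounted to 15 counts over the 6 sham libraries, with 3 libraries at 0. Its sham levels ran from 0 through a median of 0.0661 to 0.207 CPM. At SAH 1d they ran from 0.392 through 0.949 to 43.3 CPM. All SAH 1d libraries lay above the highest sham library, but 91.2% of the group's summed Il6 CPM came from SAH 1d-3. The other 5 SAH 1d libraries had Il6 at 0.392 to 1.36 CPM. The fitted log2 difference was 6.50 ± 1.53 (SE, n = 6 per group), and 3.24 without SAH 1d-3.

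Il11 encodes a cytokine that signals through gp130 with its own receptor chain. Its sham levels were 0 at the lowest, 0.149 at the median and 0.185 CPM at the highest, and its SAH 1d levels were 0.332, 1.69 and 89.7 CPM. The groups did not overlap, and within the SAH 1d group the ratio of the highest to the lowest level was wider than for any other of the 10 genes. SAH 1d-3 held 90.2% of the group's Il11 CPM, and SAH 1d-5 came second at 5.14 CPM. The fitted log2 difference from sham was 7.18 ± 1.60, and 4.08 without SAH 1d-3.

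Lif, whose product is made by injured neural tissue and acts through LIFR and gp130, had sham levels of 0, 0.0794 and 0.265 CPM (lowest, median, highest). Its SAH 1d levels were 0.769, 1.42 and 28.2 CPM. Again every SAH 1d library was above every sham library. SAH 1d-3 held 73.7% of the group's Lif CPM, a smaller share than for Il6 and Il11. The fitted log2 difference was 6.17 ± 1.18, and 4.49 without SAH 1d-3, a smaller loss than for Il6 or Il11.

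Clcf1, which encodes a cytokine that acts through the ciliary neurotrophic factor receptor, was the ligand with measurable levels in sham cortex. Its sham levels were 0.720, 1.78 and 3.06 CPM, and its SAH 1d levels were 1.32, 2.23 and 17.5 CPM. The groups overlapped, since 4 of the 6 SAH 1d libraries lay inside the sham range, with SAH 1d-3 above it at 17.5 CPM and SAH 1d-5 above it at 8.56 CPM. The fitted log2 difference was 1.59 ± 0.67, and 0.76 without SAH 1d-3. edgeR did not call it with or without that library, and DESeq2 did.

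Of the receptor chains, Osmr differed most between SAH 1d and sham, Il6st and Il6r differed by under 2-fold, and the levels of Lifr overlapped throughout. Osmr, the specific chain of the oncostatin M receptor, had sham levels of 0.695, 1.84 and 2.63 CPM. At SAH 1d the levels were 5.21, 6.14 and 41.1 CPM, with no overlap. Its fitted log2 difference was 2.91 ± 0.59, and 1.94 without SAH 1d-3, and the other 5 SAH 1d libraries were closely spaced from 5.21 to 8.05 CPM.

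Il6st, the shared gp130 chain, was expressed in every library. Its levels were 33.9, 37.5 and 44.0 CPM in the sham and 51.7, 59.1 and 124.9 CPM in the SAH 1d group. The ranges did not touch, although the fitted log2 difference of 0.90 ± 0.19 was below the 2-fold mark, and it was 0.65 without SAH 1d-3. Il6r, the chain that binds IL-6, had 9.98, 14.1 and 21.8 CPM in the sham and 20.7, 23.8 and 40.7 CPM in the SAH 1d group. Here 1 SAH 1d library lay below the highest sham library, and the log2 difference was 0.84 ± 0.22, or 0.67 without SAH 1d-3. Lifr, the chain shared by several of these ligands, had 12.6, 15.5 and 20.8 CPM in the sham and 11.2, 14.7 and 36.2 CPM in the SAH 1d group. The 5 SAH 1d libraries other than SAH 1d-3 all lay below the sham maximum. Its log2 difference of 0.19 ± 0.26 changed sign without SAH 1d-3, to -0.14, and in limma voom with quality weights, to -0.15, so no direction is given.

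Socs3, the feedback inhibitor, was low in all sham libraries and high in all SAH 1d libraries. Its levels were 0.199, 0.496 and 1.00 CPM in the sham group and 5.10, 9.30 and 60.7 CPM in the SAH 1d group. The lowest SAH 1d library was therefore well above the highest sham library. The fitted log2 difference was 5.10 ± 0.70, and 4.12 without SAH 1d-3. Stat3 had 57.8, 62.3 and 67.1 CPM in the sham group, a narrow range, and 115.8, 128.7 and 306.7 CPM in the SAH 1d group. Each SAH 1d library was above each sham library. The log2 difference of Stat3 was 1.41 ± 0.22, and 1.13 without SAH 1d-3.

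A gene was called at an adjusted p under 0.05 (edgeR quasi-likelihood F test, Benjamini-Hochberg over all 18444 genes) with a log2 difference of at least 1 in size. In SAH 1d against sham, 6 of the 10 genes were called, all higher (Il6, Il11, Lif, Osmr, Socs3 and Stat3), and 5.57% of all tested genes were called higher. A further pair, Il6st and Il6r, passed the adjusted p but not the fold, making 8 of 10, beside 14.9% of all tested genes that passed and were higher. The groups did not overlap for 7 of the 10 genes, all higher at SAH 1d, beside 7.89% of all tested genes. Nothing about the family is read from these counts, since the genes were chosen with this comparison known. The same 6 genes were called without SAH 1d-3, and Il6r no longer passed when all 18 libraries entered 1 fit. DESeq2 called 4 (Clcf1, Lif, Socs3 and Stat3) and gave no adjusted p for Il6, Il11 and Osmr.

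**Figure D2:**
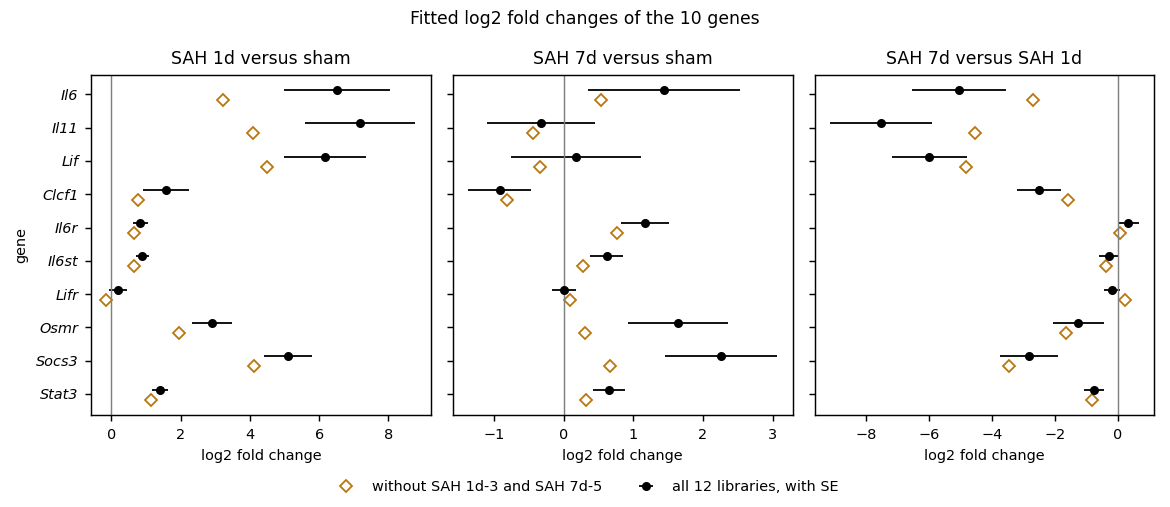
Fitted log2 fold change of each gene (x axis, scaled separately in each panel; y axis, gene) in the 3 comparisons, with all 12 libraries (filled circles, bars are the SE) and with SAH 7d-5 and SAH 1d-3 left out (open diamonds). At SAH 1d the value of Il11 moves from 7.18 to 4.08 and that of Stat3 from 1.41 to 1.13, and at SAH 7d that of Socs3 moves from 2.26 to 0.67.

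SAH 7d was set against sham to ask what remained at 7 days. The ligands were again near the limit of detection. Il6 was at 0, 0.110 and 0.787 CPM, Il11 at 0, 0.0856 and 0.171 CPM and Lif at 0, 0.0848 and 0.242 CPM (lowest, median and highest of 6). These ranges overlapped those of the sham group for all 3 ligands. Clcf1 at SAH 7d was at 0.395, 0.921 and 1.64 CPM, with a median below that of the sham group and a log2 difference of -0.92 ± 0.45, or -0.81 without SAH 7d-5.

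The receptor chains and Socs3 overlapped the sham group at SAH 7d as well. Il6r was at 17.1, 26.7 and 74.6 CPM, and its log2 difference from sham was 1.17 ± 0.34, or 0.77 without SAH 7d-5. Il6st was at 41.6, 46.7 and 117.4 CPM, with a log2 difference of 0.61 ± 0.24 that was 0.28 without SAH 7d-5. Osmr was at 0.993, 2.14 and 20.1 CPM, and Socs3 was at 0.411, 0.855 and 10.7 CPM. SAH 7d-5 set the highest value of both, and without it the log2 difference of Osmr went from 1.64 ± 0.72 to 0.30 and that of Socs3 from 2.26 ± 0.81 to 0.67. Lifr, at 11.3, 15.4 and 20.7 CPM, had a log2 difference of 0.005 ± 0.17 from sham, or 0.094 without SAH 7d-5.

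Stat3 was the member whose SAH 7d and sham libraries did not overlap. Its SAH 7d levels were 68.1, 80.8 and 199.5 CPM, against a highest sham value of 67.1 CPM. Of all tested genes 0.797% were higher at SAH 7d without overlap. The log2 difference of Stat3 was 0.65 ± 0.23, and 0.32 without SAH 7d-5, with all 5 remaining libraries still above the sham maximum. By edgeR 0 of the 10 genes were called in this comparison, as were 0% of all tested genes. At an unadjusted p under 0.05 there were 5 of the 10, beside 2842 of all tested genes, or 15.4%. DESeq2 called 1 of the 10, Il6r, and gave no adjusted p for Osmr and Socs3. The share of all genes that DESeq2 called is not given here, so nothing is read from that count.

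The comparison of SAH 7d with SAH 1d shares its libraries with the others, so its values are not independent of them. Il11 and Lif were lower at SAH 7d in every library, with log2 differences of -7.52 ± 1.62 and -5.99 ± 1.20. SAH 1d-3 carried much of the size, since without it the differences were -4.42, or 21.4-fold lower, for Il11 and -4.31, or 19.8-fold lower, for Lif. Il11 and Lif were the 2 of 10 genes called lower, and also the 2 without overlap, beside 0.542% of all tested genes called lower and 2.11% lower without overlap. Nothing is read from these counts either, since both genes passed the filter on low counts only through the SAH 1d group. Leaving out a library changed this call. Without SAH 1d-5, or without any of SAH 7d-1, SAH 7d-2, SAH 7d-3, SAH 7d-4 and SAH 7d-6, 0 of the 10 genes were called, and without SAH 1d-4 Lif alone was called. Without SAH 7d-5, 6 genes were called lower (Il6, Il11, Lif, Osmr, Socs3 and Stat3), and with SAH 7d-5 and SAH 1d-3 both left out 5 were called, the same less Stat3. DESeq2 called 3 lower, Clcf1, Lif and Socs3, and gave no adjusted p for Il11, Il6 and Osmr. The shares of all genes called with a library left out and by DESeq2 are not given here. Nothing about the family is therefore read from the change in these counts.

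Among the genes that edgeR did not call in that comparison, the size depended on which library was left out. Il6 had a log2 difference of -5.05 ± 1.49, but -1.79, or 3.45-fold lower, without SAH 1d-3, and its highest SAH 7d library overlapped the SAH 1d range. Clcf1 had -2.51 ± 0.69, or -1.68 without SAH 1d-3. For Socs3, Osmr and Stat3 the libraries that stood apart pulled in opposite directions. Socs3 had -2.83 ± 0.93, which was -1.85 without SAH 1d-3 and -4.44 without SAH 7d-5. Osmr had -1.26 ± 0.82, which was -0.29 without SAH 1d-3 and -2.63 without SAH 7d-5, the SAH 7d library that alone reached the SAH 1d range. Stat3 had -0.75 ± 0.32, which was -0.48 without SAH 1d-3 and -1.10 without SAH 7d-5. Each of these 5 genes was lower at SAH 7d in all of these fits. Il6r, with 0.34 ± 0.33, and Il6st, with -0.28 ± 0.30, differed by about their SE. Il6st was at -0.035 without SAH 1d-3 and -0.63 without SAH 7d-5. The value of Il6r without SAH 7d-5 was -0.09, and that of Lifr changed from -0.18 ± 0.27 to 0.14 without SAH 1d-3.

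The library that stood apart did so to a different degree for each gene. SAH 1d-3 was the highest SAH 1d library for 10 of the 10 genes. Its level over the median of the other 5 was 88.7-fold for Il11, 54.8-fold for Il6, 26.2-fold for Lif and 10.04-fold for Clcf1, so the ligands stood farthest apart. For Socs3 the ratio was 7.50 and for Osmr 6.82, and for Lifr, Stat3, Il6st and Il6r it lay between 1.80 and 2.51. SAH 1d-5 came second for 6 genes, Il6, Il11, Lif, Clcf1, Socs3 and Stat3, and for no receptor chain.

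SAH 7d-5 was the highest SAH 7d library for 7 of the 10 genes and showed another order. The ratio to the median of the other 5 was 15.8 for Socs3, 12.3 for Osmr and 11.5 for Il6. For Il6 that median was 0.0685 CPM, close to the limit of detection, and SAH 7d-5 held 26 counts, so its ratio is loose. For Il6r it was 3.26, for Il6st 2.63 and for Stat3 2.55. Il11 in SAH 7d-5 was at 0.121 CPM, inside the range of the sham group, so the gene that was most extreme in SAH 1d-3 was not above the sham range there. Lifr was the lowest of its group in SAH 7d-5, at 11.3 CPM, and Clcf1 was at 0.605 CPM, with only SAH 7d-2 lower.

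**Figure D3:**
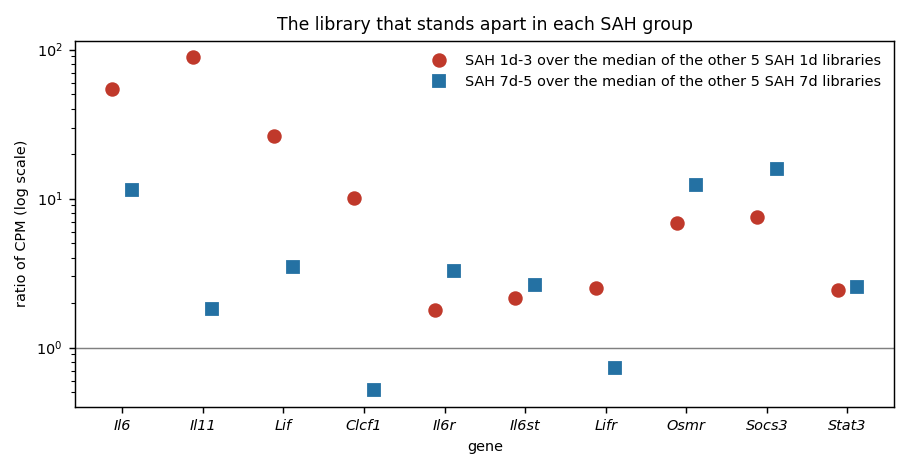
Ratio of the CPM in SAH 1d-3 (circles) and SAH 7d-5 (squares) to the median of the other 5 libraries of the same group (y axis, log scale), for each gene on the x axis, with the line at a ratio of 1. In SAH 1d-3 the ligands lie highest, up to 88.7 for Il11, and in SAH 7d-5 Socs3 and Osmr lie highest, at 15.8 and 12.3.

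Markers of several blood-borne and border cells were high in these libraries, and others were not. The monocyte and macrophage list, with 5 of its 6 genes in the files, summed to 53.3 to 96.0 CPM in the sham group. It summed to 499 CPM in SAH 1d-3 against 86.5 to 126 CPM in the other SAH 1d libraries, and to 8204 CPM in SAH 7d-5 against 95.7 to 257 CPM in the other SAH 7d libraries. Lyz2 had a mean of 1427 CPM over the SAH 7d group, against 42.2 CPM for Mrc1, so that sum is mostly this gene. The neutrophil list (7 of 7 genes) summed to 1.92 to 6.09 CPM in the sham group, 71.3 CPM in SAH 1d-3 against 6.76 to 15.5 CPM, and 220 CPM in SAH 7d-5 against 3.32 to 20.9 CPM. Its genes did not move alike at SAH 7d. Of the 3 tested, Mmp8 and Csf3r had means of 21.8 and 23.3 CPM, above sham. S100a9 was at 0.285 CPM, against 0.404 CPM in sham. The fibroblast list (5 of 5 genes) was at 161 to 336 CPM in the sham group, at 369.5 CPM in SAH 1d-3 and at 2400 CPM in SAH 7d-5, and the microglia list (6 of 6 genes) was at 2447 CPM in SAH 7d-5 against 318 to 1013 CPM. In SAH 1d-3 the microglia list was the lowest of its group, at 318.8 CPM against 319.6 to 360.5 CPM. The astrocyte list (6 of 6 genes) was the lowest of its group in both libraries. It was at 2315 CPM in SAH 1d-3 against 3118 to 3685 CPM, and at 3266 CPM in SAH 7d-5 against 3469 to 4793 CPM. Gfap, the astrocyte filament gene, is not on this list and did not follow it. It was the highest of its group in SAH 1d-3, at 3769 CPM against 2244 to 3223 CPM. In SAH 7d-5 Gfap came second, at 2360 CPM against 476 to 2548 CPM. Mural (271 CPM) and T cell (5.26 CPM) lists were highest of their group in SAH 7d-5. Other libraries differed too, since choroid plexus markers summed to 1038 CPM in SAH 1d-6, with a group median of 22.9 CPM. In the sham group, sham-1 was the lowest for neuron markers. It was the highest for the astrocyte, oligodendrocyte, microglia, endothelial, mural and T cell lists, and for no other list. The red cell list (2 of 4 genes) was the lowest of its group in SAH 7d-5, at 0.0907 CPM against 2.46 to 24.4 CPM, and the highest in SAH 1d-3, at 82.5 CPM against 18.1 to 36.1 CPM. No gene of these lists was at 0 in all libraries. In all 5 SAH 1d libraries other than SAH 1d-3, 7 of the 10 genes lay above the sham maximum (Il6, Il11, Lif, Il6st, Osmr, Socs3 and Stat3). The share of all genes that did so is not given here, and the 10 genes were chosen with this comparison known. Nothing about the family or these cell types is therefore read from that count. The part of these cell types in the levels of the 10 genes was not tested.

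The wider pathway was read from lists of 53 further genes, of which 49 were in the files and 43 were tested. In SAH 1d against sham, 16 of the 43 were called, all higher, beside 5.57% of all tested genes, and 22 passed the adjusted p, all higher, beside 14.9%. The lists were chosen with earlier results known, so nothing about a list is read from its count. The 16 called were the same without SAH 1d-3. With all 18 libraries in 1 fit 13 were called, without A2m, Ptpn6 and Shc1, and DESeq2 called 15, without Lbp and Timp1 and with Il27ra. Of the other ligands of the family, 5 were tested and 2 passed. Osm, which encodes oncostatin M, the ligand of the Osmr chain, rose by 3.35 ± 0.87 on the log2 scale (edgeR, adjusted p = 0.0144), from 0.186 CPM at the sham median to 0.719 CPM at SAH 1d. Without SAH 1d-3 the value was 1.996 (edgeR, adjusted p = 0.0207). Cntf, which encodes ciliary neurotrophic factor, rose by 0.70 ± 0.16 (edgeR, adjusted p = 0.00783), and by 0.68 without SAH 1d-3, with every SAH 1d library above every sham library.

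Of the other receptor chains 0 of 3 passed. At an unadjusted p under 0.05 there was 1, Il27ra, beside 38.8% of all tested genes. DESeq2 called Il27ra as well. Il11ra1, the receptor chain of IL-11, had medians of 15.3 CPM in the sham and 17.3 CPM in the SAH 1d group, a log2 difference of 0.19 ± 0.12 (edgeR, adjusted p = 0.276). Cntfr, the binding chain for ciliary neurotrophic factor and the Clcf1 product, had a log2 difference of -0.06 ± 0.16 (edgeR, adjusted p = 0.803). Without SAH 1d-3 it was 0.05, so no direction is given. Among 5 tested kinases and STATs none reached the 2-fold mark, and 2 passed the adjusted p (edgeR), Jak2 at 0.76 ± 0.20 (adjusted p = 0.0141) and Jak1 at 0.35 ± 0.11 (adjusted p = 0.041). Without SAH 1d-3 these were 0.50 and 0.23.

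The inhibitors were not all alike. Of 8 tested, 3 passed, all higher, and 1 was called, the phosphatase gene Ptpn6, at 1.43 (edgeR, adjusted p = 0.000164), or 1.36 without SAH 1d-3. Socs1, the closest relative of Socs3 in function, had a log2 difference of 0.90 (edgeR, adjusted p = 0.114), or 0.52 without SAH 1d-3. Socs2 had -0.30 (edgeR, adjusted p = 0.361), or -0.40 without SAH 1d-3. The value of Socs3 was 5.10, or 4.12 without SAH 1d-3. Of 5 tested genes of the MAP kinase arm 1 was called, the adaptor gene Shc1, at 1.35 ± 0.26 (edgeR, adjusted p = 0.00319), or 1.02 without SAH 1d-3.

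Most of the called genes were on the lists of STAT3 targets and acute-phase genes, and nothing about these lists is read from that. Of 11 tested targets 8 were called higher, with a median log2 difference of 2.14 beside 0.00856 over all tested genes. Bcl3, a nuclear cofactor of NF-kB, rose by 4.55 ± 0.58 (edgeR, adjusted p = 0.000246), and by 4.21 without SAH 1d-3. Cebpd, a transcription factor of the acute-phase response, rose from a median of 2.94 to 25.6 CPM, and Gfap, the astrocyte filament gene, from 340 to 2826 CPM, both without overlap of the groups. Of 6 tested acute-phase genes 5 were called higher, with a median of 3.85. Both medians include SAH 1d-3. Fga, Fgb and Fgg of the acute-phase list were not tested, with at most 0.677, 0.101 and 0.251 CPM at SAH 1d. Timp1, an inhibitor of metalloproteinases, rose by 5.98 (edgeR, adjusted p = 0.000684), and by 4.33 without SAH 1d-3. Lcn2, which encodes the iron-scavenging protein lipocalin 2, rose by 5.57, and by 5.53 without SAH 1d-3, so this gene did not depend on that library as Il6 and Il11 did. Many of these genes are also driven by NF-kB or C/EBP factors, so the lists are not specific to STAT3.

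**Figure D4:**
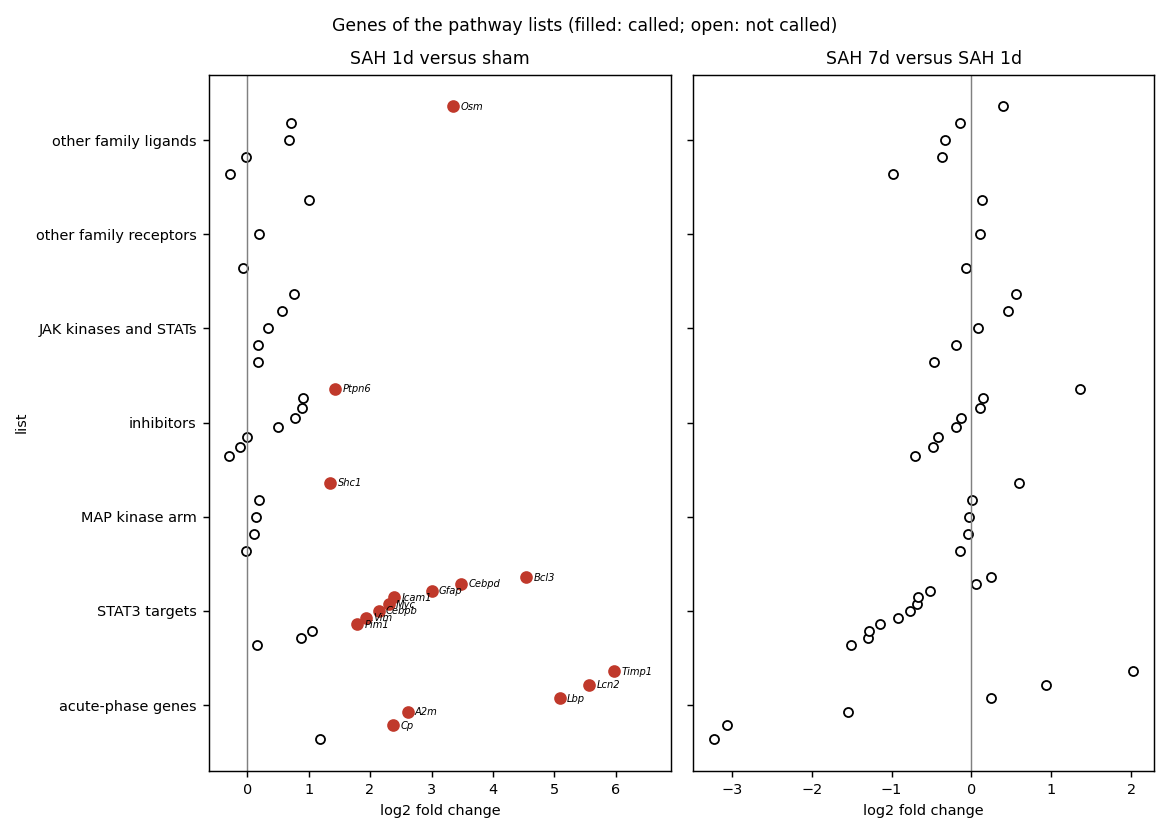
Log2 fold change (x axis) of the 43 tested genes of the 7 pathway lists (y axis), for SAH 1d against sham and SAH 7d against SAH 1d; each point is 1 gene, filled where called. On the left 16 genes are filled, 13 of them in the lists of STAT3 targets and acute-phase genes, and on the right 0 are filled.

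At SAH 7d 0 of the 43 pathway genes were called against sham by edgeR. At an unadjusted p under 0.05 there were 25, beside 15.4% of all tested genes. DESeq2 called 7 (Bcl3, Cebpd, Gfap, Lcn2, Ptpn6, Shc1 and Timp1). Against SAH 1d, edgeR called 0 of the 43, with 8 at an unadjusted p under 0.05, beside 14.7% of all tested genes. DESeq2 called 2, Cebpd and Lcn2. Without SAH 7d-5 edgeR called 10, all lower. The shares of all genes called in that fit and by DESeq2 are not given here, so nothing is read from these counts. Lcn2 had a log2 difference of -4.02 and Timp1 of -2.90 with SAH 7d-5 and SAH 1d-3 left out, beside -3.47 for Socs3 in the same fit.

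The genes with levels most like those of Socs3 over the 18 libraries were, by Spearman's rho, Xylb (0.959), Cebpb (0.955), Cebpd (0.940), Mvp (0.940) and Adipor1 (0.936), out of 12991 genes with a symbol and over 1 mean CPM. Cebpb and Cebpd are on the list of STAT3 targets. Cebpb ran from 5.53 to 7.08 CPM in the sham, 15.3 to 55.5 CPM in the SAH 1d and 6.23 to 25.7 CPM in the SAH 7d group. For Il11 they were Oxnad1 (0.884), Ccdc130 (0.882), Gtf3c4 (0.870), Tmem201 (0.863) and Lonp1 (0.857). These genes moved over a much narrower range than Il11. Lonp1 lay at 75.6 to 82.6 CPM in the sham and 85.1 to 121 CPM in the SAH 1d group. The libraries share groups and depth, so these values describe likeness of rank over the same 18 libraries and no more.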

How the data were processed

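Total RNA of rat cerebral cortex was sequenced in 18 libraries, 6 per group. The deposited counts are raw whole numbers that the authors obtained for each gene. The deposited FPKM values were made by the authors and divide reads by transcript length and library size. The study names the rat genome Rnor_6.0, whereas the submitters' processing notes name fastp, HISAT2, DESeq2 1.16.1 and the mouse build mm9. The gene identifiers are those of rat. The counting program is not given in the sources used here. Precision rests on the variation among rats and not on counting error, since it is unclear whether a read pair gave 1 count.

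Libraries were grouped by their deposited descriptions, which equal the column names. Differences were fitted with edgeR 4.0.16 in R 4.3.3, with filterByExpr on all 18 libraries, TMM scaling and the two-sided quasi-likelihood F test on the 12 libraries of a comparison. Benjamini-Hochberg adjustment ran over 18444 genes. The SE is the absolute log2 difference over the square root of F. Alternatives used DESeq2 1.42.0, limma 3.58.1 voom with sample quality weights, limma on log2(FPKM + 1) and log2(FPKM + 0.1), other filters, all 18 libraries in 1 fit, a replicate block and each library left out. Self-tests ran on simulated data. Tables were made with Python 3.11.15 and pandas 2.3.3, and figures with matplotlib 3.10.9. Promoter sequences are RefSeq's, from GRCr8.

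The 10 genes, the pathway lists and the marker lists were chosen with earlier results of these data known. All 10 genes are named. Of each pathway list, up to 4 called genes with the largest difference may be named, and of the genes most like Socs3 and Il11, the top 5. Il27ra, Il11ra1, Cntfr and Cntf were named as family genes without a call, and Jak1, Jak2, Socs1 and Socs2 were chosen after their values were seen. Some listed genes, among them Il31, Mcl1, Serpina3n, Pecam1, Ccr2, Trac, Hba1 and Hba2, were not analysed here.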

Additional observations from a re-analysis of the deposited data

Results flagged for a closer look

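In 13 of 30 sets of 6 libraries checked, 1 for each of the 10 genes and 3 groups, the highest library lay farther from the next than Dixon's 95% limit allows. For normally distributed values chance alone gives about 1 in 20 such sets. The limit was applied to CPM without a log scale, where skewed levels pass it more often, and the sets share libraries. All 13 fell on SAH 1d-3 or SAH 7d-5, and 0 on a sham library. SAH 1d-3 lay apart for 8 genes. Its ligand levels were 43.3 CPM for Il6, 89.7 CPM for Il11 and 28.2 CPM for Lif. Its receptor levels were 40.7 CPM for Il6r, 124.9 CPM for Il6st, 36.2 CPM for Lifr and 41.1 CPM for Osmr, and Socs3 was at 60.7 CPM. SAH 7d-5 lay apart for 5 genes, with Il6r at 74.6 CPM, Il6st at 117.4 CPM, Osmr at 20.1 CPM, Socs3 at 10.7 CPM and Stat3 at 199.5 CPM. Stat3 and Clcf1 in SAH 1d-3 were the highest of their group without passing the limit, since SAH 1d-5 came near, at 191 CPM for Stat3. The summed monocyte and macrophage markers were at 499 CPM in SAH 1d-3 and 8204 CPM in SAH 7d-5, and their part in these levels was not tested.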

How the results depend on the processing

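In SAH 1d against sham the same 6 genes were called whichever library was left out. With at least 10 counts in every library 2 were called, since Il6, Il11, Lif and Socs3 were then not tested, and with limma on log2(FPKM + 1) 3 were called, with or without the filter. Of the pathway genes 16 were called, 13 to 18 over the alternatives. In SAH 7d against sham DESeq2 called 1 of the 10 genes and 7 pathway genes, and all 18 libraries in 1 fit called 1 pathway gene; leaving out a library gave 0 to 1. In SAH 7d against SAH 1d the count of the 10 genes called was 3 with DESeq2, 5 with voom, 2 with limma on log2(FPKM + 0.1), which called Lif and Socs3, 5 with SAH 7d-5 and SAH 1d-3 left out, 4 with all 18 libraries in 1 fit, 0 with at least 10 counts in every library, 0 with limma on log2(FPKM + 1) with or without the filter, and 0 to 6 over libraries left out. For pathway genes it was 2 with DESeq2, 11 with voom, 3 with all 18 libraries, 1 with log2(FPKM + 1) with or without the filter, 2 with log2(FPKM + 0.1), 10 without the pair, and 0 to 10 over libraries left out. The shares of all genes called under these alternatives are not given here, so the counts describe the listed genes alone. The causes were not tested.

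Same-numbered libraries did not deviate together (r from -0.318 to 0.292, over 0.1 in 1, 2 and 1 of 6 pairs), so the numbers do not pair them. A replicate block gave 0 calls among the 10 genes in SAH 7d against SAH 1d and the same calls as without it in the other comparisons of these and the pathway genes.

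Signs changed for genes near 0. In SAH 1d against sham Lifr was -0.15 with voom, -0.14 with the same pair left out and from -0.14 to 0.29 over libraries left out. In SAH 7d against sham Lif was -0.29 with voom, -0.34 without SAH 7d-5, alone or with SAH 1d-3, and from -0.34 to 0.84 over libraries left out, and Lifr from -0.0792 to 0.0939 over libraries left out. In SAH 7d against SAH 1d Lifr was 0.19 with voom, 0.22 without the pair and from -0.29 to 0.14 over libraries left out, and Il6r was from -0.0861 to 0.51. Low counts limit Il6, Il11 and Lif outside the SAH 1d group, where a library held at most 26 counts.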
